A study of Homo sapiens with 2 samples.

Results

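RAS proteins, RAF kinases and the proteins that switch them were examined as 8 genes: the RAS GTPase genes NRAS and HRAS, the RAF kinase genes BRAF and ARAF, the exchange factor genes SOS1 and SOS2, the GTPase-activating protein gene NF1, and SPRED1. A peak counted for a gene when its summit lay in the RefSeq span of that gene on hg38, whatever gene the deposited list named. By this rule 38 of 39801 deposited peaks belonged to the group. The peaks came from m6A-seq, in which an antibody against N6-methyladenosine (m6A), the commonest internal modification of mRNA, captures RNA fragments that are then compared with uncaptured RNA. Per the labels, the cells were HCCLM3, a human hepatocellular carcinoma cell line, of wild-type genotype and with no treatment named. There was 1 m6A-RIP library and 1 input library, with no replicate of either, so values describe these libraries and no difference has a replicate check.

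RAS proteins are small GTPases at the inner face of the plasma membrane that are active when bound to GTP. SOS proteins load them with GTP after receptor tyrosine kinases are stimulated, and neurofibromin, the product of NF1, speeds GTP hydrolysis and so turns them off. Active RAS recruits RAF kinases, which start the MEK and ERK cascade, and SPRED1 brings neurofibromin to the membrane and restrains RAF. The series concerns liver cancer cells and lenvatinib, an inhibitor of receptor tyrosine kinases, which lie upstream of this switch. m6A in mRNA is known to be most frequent near stop codons and in 3' UTRs.

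Peaks were found in 7 of the 8 genes and none in NRAS. Among all 20033 protein-coding genes, 49.3% held a deposited peak. A peak with a q-value under 0.05 was present in 6 members, against 39.0% of protein-coding genes, and one with a q-value under 1e-5 in 5 members, against 28.5%. Fold, p-value and q-value are those of the authors' peak caller, and the fold compares RIP with input signal where the peak is highest, its summit. The range in parentheses after a fold is an exact 95% Poisson interval. It treats the input as known, so it covers counting error of the RIP library only. Fragment numbers and input levels were recovered from each peak's fold and p-value. Total depth is unknown, and the RIP library was 1.56 times the size of the input.

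Gene length bears on these shares, because long genes offer more sequence in which a summit can fall. Of the protein-coding genes with a span of 100 kb and more, 70.7% held a peak and 55.4% held one with a q-value under 0.05. All 5 members of that length, BRAF, SOS1, SOS2, NF1 and SPRED1, held both. Of genes spanning 5 to 20 kb, 38.7% held a peak; ARAF did and NRAS did not. Of genes under 5 kb, 19.9% held a peak, and HRAS was one of them. The median number of peaks in a protein-coding gene of 100 kb and more was 3, with an upper quartile of 7. SOS1 held 9, BRAF and SPRED1 8 each, NF1 6 and SOS2 4, so SOS1, BRAF and SPRED1 lay above that quartile. In that class 21.1% of genes held at least 8 peaks.

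**Figure D1:**
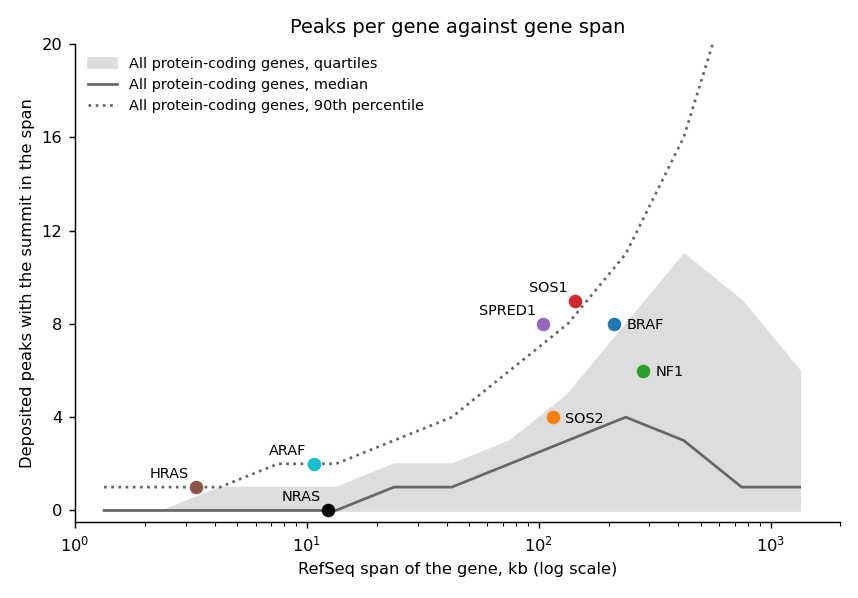
Number of deposited peaks with the summit in a gene against the gene's RefSeq span in kb (log scale), for the 8 members (points) and all protein-coding genes (median, quartile band and 90th percentile by span class). SOS1 with 9 peaks and SPRED1 with 8 lie at or above the 90th percentile of their span class, which is 8, and NRAS lies at 0.

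Strength was uneven among the 38 peaks. A q-value under 0.05 was reached by 22 of them (57.9%, Wilson interval 42.2 to 72.1), against 48.8% of all deposited peaks, and one under 1e-5 by 12 (31.6%), against 25.8%. A fold of at least 4 was reached by 16 (42.1%), against 33.9%. The median fold of the 38 was 3.68, with quartiles of 2.87 and 5.52, against 3.33 over all peaks. RIP fragments at the summit had a median of 17.5, against 9 over all peaks and 12 over the peaks that lie in protein-coding genes. The Wilson intervals of these 3 shares held the values of the whole list. Over peaks in protein-coding genes, where all 38 lie, the 3 shares were 53.7%, 29.5% and 36.2%, closer to those of the members. The median fold there was 3.38. Weakly supported peaks took smaller shares among the members: 13 of the 38 (34.2%, 21.2 to 50.1) had fewer than 10 RIP fragments, against 50.2% of all peaks, and 4 (10.5%, 4.17 to 24.1) had a q-value of 1, against 25.9%. The lowest input level of the list was found at 3 (7.89%, 2.72 to 20.8), against 26.3%. The whole list includes intergenic peaks. Over peaks in protein-coding genes these last 3 values were 44.0%, 22.9% and 21.0%, of which 44.0% and 22.9% lay inside the members' intervals. All of these intervals treat peaks as independent, although 31 of the 38 came from BRAF, SOS1, NF1 and SPRED1.

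**Figure D2:**
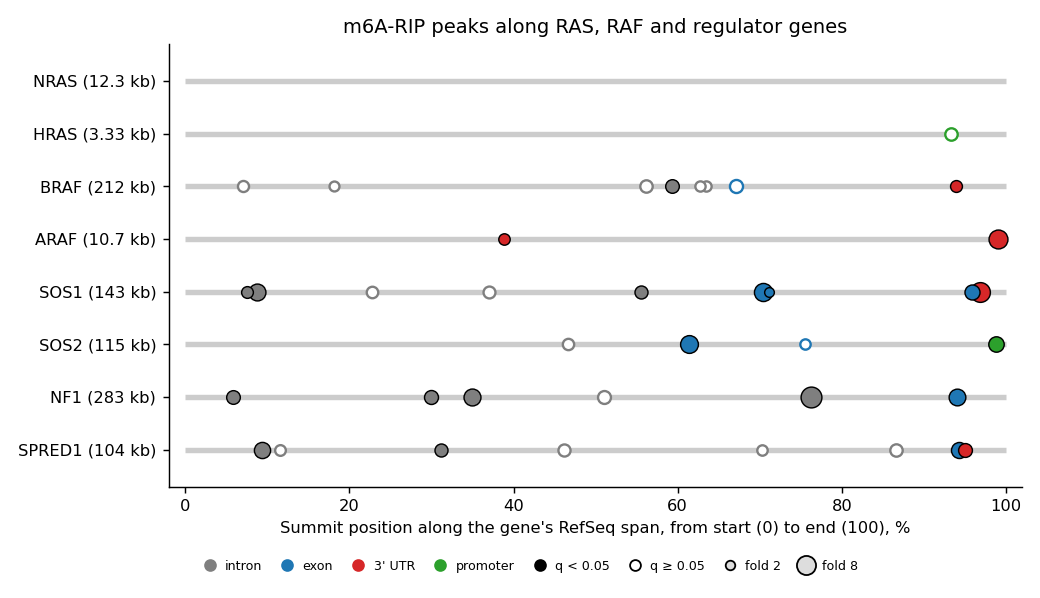
Position of each of the 38 summits along its gene as a percent of the RefSeq span, from the gene's start (0) to its end (100), with 1 line per gene. Colour gives the deposited region label, area gives the fold, and filled points have a q-value under 0.05; every gene with a peak has one beyond 90%.

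The RAS GTPase genes carried almost no signal. NRAS, a RAS gene often mutated in melanoma and leukaemia, spans 12.3 kb on chromosome 1 from 114704469 to 114716771, and no peak touched it. The nearest summits lay 32.0 kb before its start and 79.2 kb beyond its end. The absence of a peak does not separate absence of m6A from too few captured fragments, and the level of NRAS RNA was not measured here.

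HRAS, the homologue of the Harvey sarcoma virus oncogene, spans 3.33 kb on chromosome 11 from 532242 to 535576 and held a single peak, from 532301 to 532738. Its fold was 3.38 (1.64 to 6.81) on 5 RIP fragments over an input level of 0.246, the lowest in the whole list, and its q-value was 0.054. The deposited label was promoter, 2 to 3 kb from a start, but the summit lay 222 bases before the end of HRAS, which is transcribed from the minus strand. HRAS lies wholly inside LRRC56, a gene on the opposite strand, and the peak list gives no strand, so the 2 genes cannot be told apart as its source. A fold this size was common: 73.8% of the 9879 protein-coding genes with a peak had a higher best fold.

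Both RAF kinase genes carried peaks with a q-value under 0.05. ARAF, which lies on the plus strand of chromosome X from 47561205 to 47571908, held 2 peaks and both carried a 3' UTR label. The stronger, from 47571426 to 47572096, had a fold of 7.82 (5.55 to 10.7) on 35 RIP fragments over an input level of 2 and a q-value of 1.59e-13. Its summit lay 111 bases before the end of ARAF. The peak runs past that end into SYN1, whose own end meets it on the opposite strand, and SYN1 held no summit of its own.

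The other ARAF peak lay from 47565258 to 47565569, at 38.8% of the span, although it too had a 3' UTR label; the list does not say which transcript lies behind that label. Its fold was 2.86 (2.10 to 3.82) on 43 RIP fragments, with a q-value of 2.33e-04. More fragments were captured there than at the gene's end, but the input level was 9 in place of 2, so the fold was lower. The intervals with fixed input did not overlap, but those that also cover the counting error of the input did, at ratios of 11.2 (2.88 to 96.3) and 3.07 (1.47 to 7.15). For these ratios a whole-number input level was read as input fragments at the summit, with no pseudocount and an exact binomial interval.

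BRAF, the RAF gene most often mutated in cancer, spans 212 kb on the minus strand of chromosome 7 from 140713328 to 140924929 and held 8 peaks, most of them weak. Only 2 had a q-value under 0.05. The better supported was in the 3' UTR, between 140725991 and 140726332. There 32 RIP fragments over an input level of 6 gave a fold of 3.08 (2.15 to 4.28) and a q-value of 9.49e-04. The other was in intron 7 of 17, between 140799270 and 140799640, where 7 fragments gave a fold of 4.05 (2.07 to 7.57) and a q-value of 0.017. Without the pseudocount the highest fold was 13.0 in BRAF and 11.2 in ARAF, the reverse of their order in the deposited folds. The BRAF value came from neither of these 2 peaks but from weaker ones. They were intron 5 (5 fragments, input level 0.246, q-value 0.054) and exon 10 (6 fragments, input level 0.296, q-value 0.096). The 3' UTR peak of BRAF had a ratio of 3.42 (1.41 to 10) with the counting error of both libraries, which overlapped that of the ARAF peak at the gene's end. The intron 7 peak had the highest deposited fold in BRAF, and 61.4% of protein-coding genes with a peak had a higher one.

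The remaining 6 BRAF peaks had folds of 2.16 to 3.74 and 3 to 11 RIP fragments. They included exon 10 of 18 (fold 3.74, 1.86 to 7.24, 6 fragments, q-value 0.096). In intron 8 there was a pair of peaks whose summits lay 1529 bases apart, with identical values: a fold of 2.31 (1.10 to 5.23) on 3 fragments over an input level of 0.266. Values of this kind repeat because few whole numbers of fragments are possible near the lowest depth. No BRAF peak had a q-value under 1e-5, whereas ARAF, a gene of 10.7 kb, had 1.

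The exchange factor genes held the best supported peak of the group. SOS1, the main RAS exchange factor downstream of growth factor receptors, spans 143 kb on the minus strand of chromosome 2 from 38981549 to 39124868. It held 9 peaks, and 7 of them had a q-value under 0.05. The 3' UTR held 105 RIP fragments over an input level of 7 at the summit of a peak between 38985414 and 38986286. This gave a fold of 8.55 (7.01 to 10.3) and a q-value of 1.10e-37. Of the protein-coding genes with a peak, 11.1% had a higher best fold. A further peak lay 1451 bases upstream in exon 21 of 22, between 38987195 and 38987513, where 37 fragments gave a fold of 4.95 (3.54 to 6.74).

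Exons 9 and 10 of SOS1 each held a peak, with summits 1030 bases apart. Exon 9 of 22, from 39023732 to 39024101, had a fold of 7.18 (5.01 to 9.99) on 32 RIP fragments over an input level of 2. Exon 10, from 39022502 to 39023174, had a fold of 2.06 (1.56 to 2.68), the lowest of all 38 peaks, on 53 fragments over an input level of 16. The exon with more captured fragments thus had the lower fold, because its input was higher.

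That difference was clear with input held fixed, and less so otherwise. On the ratio scale used above for ARAF, which covers the counting error of both libraries, exon 9 had a ratio of 10.3 (2.62 to 88.4) and exon 10 a ratio of 2.13 (1.20 to 3.98), and the intervals overlapped.

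SOS1 also held 5 intron peaks, of which 3 had a q-value under 0.05. The strongest lay in intron 1 of 21, 12.7 kb from the gene's start, from 39111921 to 39112391. Its fold was 6.23 (4.63 to 8.22) on 47 RIP fragments and its q-value 4.21e-14, so it ranked above the exon 21 peak. A neighbour 1852 bases closer to the start had a fold of 3.02 (1.97 to 4.47) on 22 fragments. The intron 6 peak had a fold of 3.71 (2.04 to 6.40), and those deeper in intron 1 had folds of 2.90 (1.66 to 4.82) and 3.10 (1.51 to 6.26) with q-values of 0.336 and 0.169.

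SOS2, the paralogue of SOS1, spans 115 kb on the minus strand of chromosome 14 from 50117130 to 50231882 and held 4 peaks, of which 2 had a q-value under 0.05. Its highest fold, 6.92 (4.42 to 10.4), was in exon 9 of 23 from 50161199 to 50161523, on 20 RIP fragments over an input level of 1 (q-value 9.14e-08). The better supported peak lay between 50118281 and 50118799, where 39 fragments gave a fold of 5.20 (3.76 to 7.04) and a q-value of 4.87e-10. It was labelled as the promoter of VCPKMT, but its summit lay inside SOS2, 1417 bases before the end of that gene. Exon 16 and intron 7 held a peak each on 3 and 4 fragments, with folds of 2.35 (1.12 to 5.32) and 2.82 (1.34 to 5.98).

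Both SOS genes thus had an exon 9 peak of similar fold, in the numbering of the transcripts the list cites, and a well supported peak near the end of the gene. The fixed-input intervals overlapped for exon 9 (5.01 to 9.99 and 4.42 to 10.4). For the peaks nearest the gene's end they overlapped only narrowly (7.01 to 10.3 in SOS1 and 3.76 to 7.04 in SOS2). With the counting error of both libraries they overlapped almost wholly, at ratios of 9.62 (4.51 to 24.5) and 6.26 (2.26 to 24.1). Whether the exons correspond between the paralogues was not examined.

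**Figure D3:**
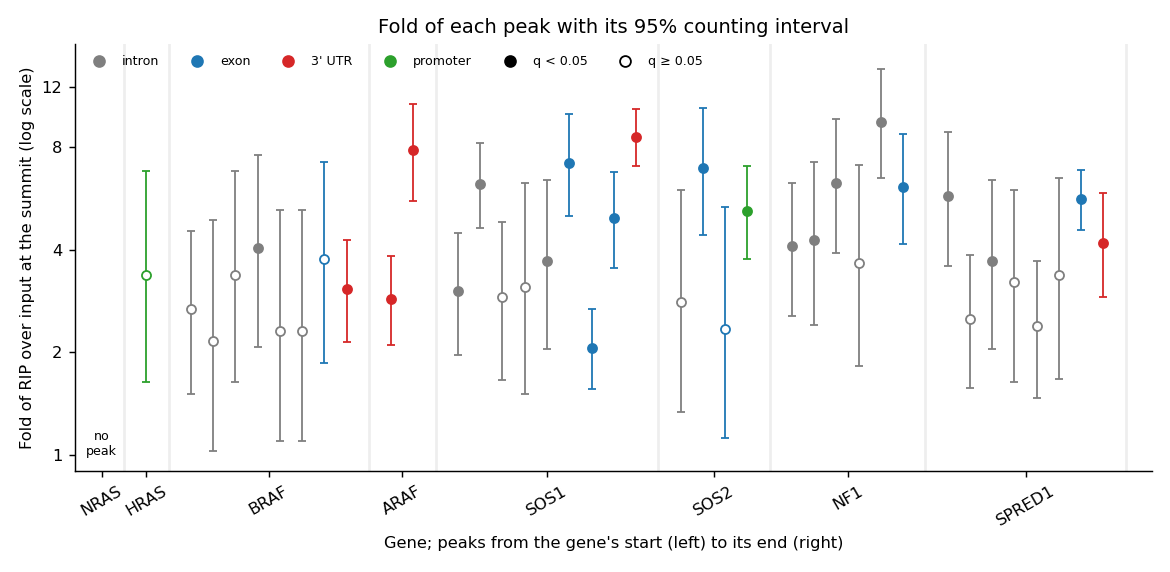
Fold of RIP over input at the summit (log scale) of all 38 peaks by gene, from the gene's start to its end, with exact 95% Poisson intervals for the RIP counts. Filled points have a q-value under 0.05; NF1 intron 35 at 9.48 and the SOS1 3' UTR at 8.55 are the highest, and most open points rest on few fragments and have wide intervals.

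NF1, a tumour suppressor gene of 283 kb on the plus strand of chromosome 17 from 31094977 to 31377675, held 6 peaks, of which 5 had a q-value under 0.05. Of the 6, 5 lay in introns. The highest fold of the group, 9.48 (6.47 to 13.5), was in intron 35 of 56 from 31310130 to 31310547, on 28 RIP fragments over an input level of 1 with a q-value of 1.98e-13. Only 7.45% of protein-coding genes with a peak had a higher best fold. That intron contains EVI2B, a gene on the opposite strand whose span holds the summit, and the deposited list named EVI2B. Without strand the transcripts cannot be told apart.

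In sequence that belongs to NF1 alone, the highest fold was 6.27 (3.92 to 9.63), in intron 8 from 31193561 to 31193916 on 18 RIP fragments. Exon 56 of 57, between 31360591 and 31360947, followed with 27 fragments, a fold of 6.11 (4.14 to 8.73) and a q-value of 1.04e-08. It was the sole exon peak of NF1, and the list named it for RAB11FIP4. Introns 5 and 1 had folds of 4.27 (2.40 to 7.22) and 4.08 (2.55 to 6.27). Intron 29 had a fold of 3.66 (1.82 to 7.07) on 6 fragments with a q-value of 0.126. No summit lay in the last 16.9 kb of NF1, and no NF1 peak carried a 3' UTR label.

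SPRED1, whose inherited loss causes a syndrome resembling neurofibromatosis, spans 104 kb on the plus strand of chromosome 15 from 38252836 to 38357249. It held 8 peaks, and 4 reached a q-value under 0.05. Its last exon carried the best supported one, in exon 7 of 7 from 38351075 to 38351608. The fold there was 5.63 (4.57 to 6.86) on 95 RIP fragments over an input level of 10, with a q-value of 1.35e-23. A 3' UTR peak with its summit 717 bases downstream had a fold of 4.18 (2.90 to 5.85) on 31 fragments. The highest fold, 5.75 (3.59 to 8.81), was in intron 1 from 38262418 to 38262757 on 18 fragments (q-value 5.65e-06), and its interval overlapped those of both end peaks. A further intron 1 peak had a fold of 3.71 (2.04 to 6.40) at a q-value of 0.037. The other 4, all intronic, had folds of 2.38 to 3.36 on 6 to 18 fragments.

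The intervals on shares that follow also treat peaks as independent, although 31 of the 38 came from BRAF, SOS1, NF1 and SPRED1. By region, 23 of the 38 peaks (60.5%, Wilson interval 44.7 to 74.4) lay in introns, against 44.4% of the 30219 peaks in protein-coding genes. All 23 lay in the 5 members of 100 kb and more, whereas the 44.4% pools genes of every length. Exon and UTR labels together covered 13 (34.2%, 21.2 to 50.1), against 38.4%, and promoter labels 2 (5.26%, 1.46 to 17.3), against 15.0%. No member held a 5' UTR peak (0 of 38, interval 0 to 9.18), against 1.46%, a value inside that interval. Of the 9 RefSeq start windows of the members, from 250 bases before to 50 bases after a transcript start, 0 were touched by a peak. No share over all genes is given here for such windows, so this count does not show a depletion. Support differed by region: 5 of 5 peaks with a 3' UTR label, 6 of 8 in exons and 10 of 23 in introns had a q-value under 0.05. Over protein-coding genes these shares were 79.0%, 71.6% and 32.8%.

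The median fold of the members' intron peaks was 3.36 on a median of 10 RIP fragments, against 2.90 on 6 over all intron peaks in protein-coding genes. The medians in exons were 5.29 and 3.82, and in 3' UTRs 4.18 and 4.13. The pseudocount in the fold lowers it most where input is low, so medians of regions that differ in input level are not a ranking of enrichment. Intron 1 accounted for 10 of the 23 intron peaks, spread over BRAF, SOS1, NF1 and SPRED1, and 5 of these had a q-value under 0.05. Of the 13 beyond intron 1, 5 did. No share of intron 1 over all intron peaks is given here, so these counts do not show a preference for it.

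Each of the 7 genes with a peak had one in the last 10% of its span, counting the HRAS peak that cannot be told from LRRC56. The last 10% held 9 of the 38 peaks (23.7%, 13.0 to 39.2), with folds of 3.08 to 8.55 and 5 to 105 RIP fragments. Of the 9, 8 had a q-value under 0.05, as did 4788 of the 6708 peaks in the last 10% of protein-coding genes of known strand. Over protein-coding genes of known strand the share of peaks there was 21.7%, and 49.9% of genes with a peak had one there. For genes of 100 kb and more it was 62.8% of genes. In the last 5% of the span there were 5 peaks in 4 of the 7 genes, against 36.2% of all genes with a peak and 52.0% of those of 100 kb and more. The first 10% of the span held 5 peaks (13.2%, 5.75 to 27.3), against 10.2% over protein-coding genes of known strand. These lay in 4 of the 7 genes (57.1%), against 25.3% of all genes with a peak, so the end was not the only part with a higher gene share. The cut at 10% was chosen after the positions were seen, and the members with earlier results of these data known. The position was not tested.

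**Figure D4:**
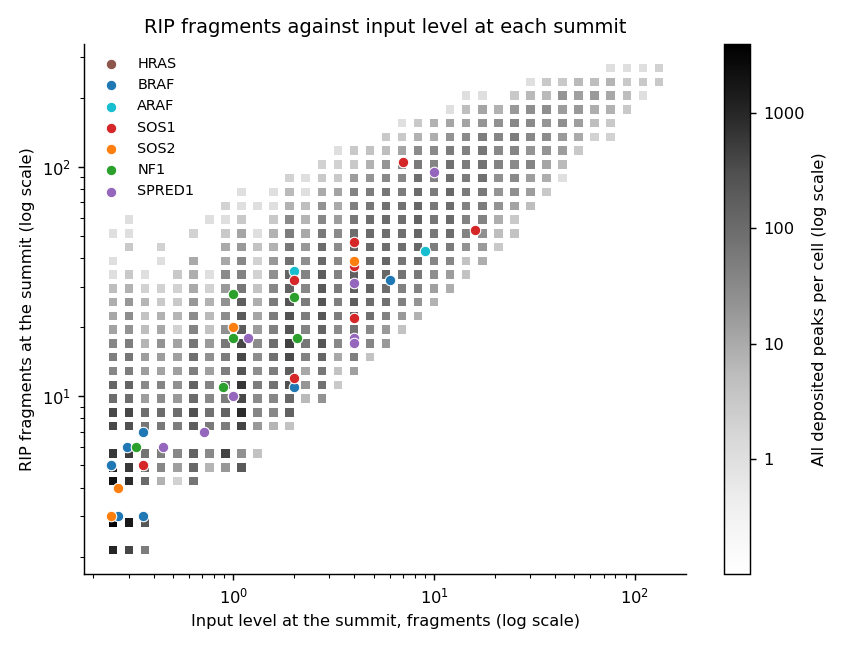
RIP fragments against input level at the summit (both log scales) for the 38 peaks of the members (coloured by gene) and all deposited peaks (grey cells, shaded by the number of peaks). The SOS1 3' UTR at 105 RIP fragments and SPRED1 exon 7 at 95 lie highest, and several BRAF peaks sit at the lower left where the list is densest.

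The deposited gene names hid part of this group. Of the 38 peaks, 22 were named for the member in which they lie and 16 for another gene or for none. The 4 exon and UTR peaks of SOS1, its strongest included, had no gene symbol, 6 of the 8 BRAF peaks were named for NDUFB2-AS1, and 3 of the 4 SOS2 peaks for VCPKMT. All 8 SPRED1 peaks and both ARAF peaks kept their own name. Searching by name would give SOS1 a highest fold of 6.23 in place of 8.55, SOS2 2.82 in place of 6.92 and NF1 6.27 in place of 9.48. The NF1 peak at 9.48 was named for EVI2B, whose span also holds its summit, so that name may be right.

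Other genes of the pathway were listed by role, and 26 of 44 held a peak (59.1%), 21 of them with a q-value under 0.05 (47.7%), against 49.3% and 39.0% of protein-coding genes. The median of their best folds was 5.03. Among 9 further RAS GTPase-activating protein genes 7 held a peak, led by RASA3 with 11.5 (7.87 to 16.2) in exon 15 of 24. Among the 6 other exchange factor genes, the RASGRP and RASGRF families, only RASGRP3 did, with 2.86 (1.36 to 6.08) on 4 RIP fragments. SOS1 and SOS2 were thus the only ones of the exchange factor genes examined with a q-value under 0.05.

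Of 8 RAF relatives, scaffolds and regulators 5 held a peak, led by the scaffold gene KSR1 with 11.6 (8.80 to 15.0) in its 3' UTR. Of 6 SPRED and Sprouty inhibitor genes 4 did, led by SPRY4 with 7.25 (5.69 to 9.12). The receptor adaptor list had 5 of 7, led by FRS2 with 6.19 (4.82 to 7.84). Of 4 other RAS-family GTPase genes 2 did, with RRAS2 highest at 4.06 (2.47 to 6.37). No best fold among the RAS GTPase genes, NRAS and HRAS included, passed 4.06. These lists were not matched on length or expression.

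The labelled liver origin was checked only through peaks, since no expression values were used here. Among hepatocyte genes APOB, HNF4A, FOXA2 and CEBPA held a peak, while ALB, APOA1, APOA2 and TTR held none. None of 4 oncofetal and 3 immune markers did, and 1 of 3 endothelial markers, PECAM1, did.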

How the data were processed

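The authors deposited 1 peak table for 1 m6A-RIP and 1 input library of HCCLM3 cells. Per the submitters' processing notes, HISAT2, MACS2 and the hg38 build were used. The sources used here give no versions, thresholds or duplicate handling. The fold is a linear ratio, per the file headers. The deposited −log10 p-value and −log10 q-value columns have damaged headers and were identified from their values, since 99.99% of the deposited scores equal 10 times the former rounded down.

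Summits (start plus offset) were placed in gene spans of the GRCh38.p14 RefSeq table with Python 3.11.15 and SciPy 1.17.1. RIP fragments and input level were solved from fold and p-value, taking fold as scaled fragments plus 1 over input level plus 1 and p as the upper tail of a Poisson distribution. For a scaling factor of 0.64155, 100.00% of peaks were met within 0.001, and 98.22% by exactly 1 whole number; all 38 peaks here were among the latter. The recovery was tested on simulated data. Strand came from the RefSeq promoter table and, where missing there, the deposited table, for 17644 of 20033 protein-coding genes; where both gave one it was the same for 8835 of 8847.

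All members were named, with each peak of q-value under 0.05, and, of other pathway genes, the highest fold per role. Some genes of the lists are not reported here. Members and lists were chosen with earlier results of these data known. Without replicates no test between conditions was made. Alternatives were other assignments, stricter peaks and the fold without a pseudocount. Intervals cover counting error only: without molecular identifiers, fragments are not independent molecules.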

Additional observations from a re-analysis of the deposited data

How the results depend on the processing

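The count of 38 peaks in the 8 genes fell to 23 by the gene named in the deposited table, 22 at a q-value under 0.05, 12 at a q-value under 1e-5, 25 with at least 10 RIP fragments, 16 at a fold of at least 4 and 15 without intron peaks. The number of genes with a peak stayed between 5 and 7 under the 8 alternatives run. At a q-value under 1e-5 the exon and UTR share was 58.3% in place of 34.2% (21.7% by the gene named in the deposited table), and 15 of the 44 other pathway genes held a peak in place of 26. The median fold was 5.08 at a q-value under 0.05, 6.25 at a q-value under 1e-5, 4.95 without intron peaks and 7.38 without the pseudocount, in place of 3.68. Without the pseudocount the highest folds were 13.0 in HRAS and BRAF, 18.0 in NF1 and 12.8 in SOS2, so the order of genes by fold depends on it. The 13.0 in HRAS and BRAF rested on peaks of 5 or 6 RIP fragments with q-values above 0.05. With summits in no other gene's span, HRAS had no peak and NF1 a highest fold of 6.27. No paired analysis was possible because there was 1 sample per group and the result comes from no test; for the same reason no sample could be left out. Depth limits the weak peaks: 13 of the 38 rested on fewer than 10 RIP fragments.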

Other observations

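Near the members' borders, 4 peaks lay outside a span by at most 20 kb. The closest was 1816 bases beyond the end of BRAF, on chromosome 7 from 140711306 to 140711770, with an intergenic label and a fold of 4.73 (2.48 to 8.57) on 8 RIP fragments. The highest fold inside BRAF was 4.05 (2.07 to 7.57) on 7 fragments, and the intervals overlapped. A second lay 3186 bases beyond the end of BRAF, with a fold of 2.35 (1.12 to 5.32) on 3 fragments. The peak that the deposited list named for SOS2 lay 12158 bases outside that gene, with a fold of 2.69 (1.28 to 5.71) on 4 fragments. The other lay 14715 bases beyond the end of BRAF, at a promoter label, with a fold of 2.85 (1.72 to 4.53) on 15 fragments.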
